A study of Mus musculus with 2 samples.

Results

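The cells described here are 588 droplet barcodes of the GS-KO (Cre) liver library. They were selected on the summed UMIs (unique molecular identifiers, 1 per captured transcript) of 4 genes, Sult2a8, Slc16a10, Cyp2c39 and Adgrv1. A barcode was chosen when it held at least 1000 UMIs in all, at least 3 UMIs over the 4 genes, at most 1 UMI over 6 NF-kB genes (Csf1, Birc3, Relb, Icam1, Ripk2, Ikbke) and at most 1 over 7 markers of Kupffer and stellate cells (Clec4f, Cd5l, C1qa, C1qb, C1qc, Reln, Dcn). They made up 44.6% (41.9 to 47.4%) of the 1317 barcodes of that library within the same limits, and 32.1% of its 1834 barcodes of at least 1000 UMIs. The whole series held 3537 such barcodes. The comparison set was the 270 barcodes of the same library with 0 UMIs of the 4 genes under the same limits, and 459 barcodes with 1 or 2 UMIs lay between them.

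The study placed 2 libraries side by side, each from the liver of 1 mouse of 11 weeks that carried floxed Glul alleles and no tumour. The control animal received AAV8-GFP and the other AAV8-Cre, a virus meant to delete Glul, the gene of glutamine synthetase. Livers were taken 2 weeks after the virus, digested by perfusion of collagenase II at 0.3 mg/mL, and both hepatocytes and a purified non-parenchymal fraction went into the droplets. Per the labels this was a 10x 5-prime assay, described in 1 place as sc-RNA-seq and in another as snRNA-seq. With 1 mouse per condition there is no test between conditions, and the cells of 1 mouse are not replicates, so no p-value is given. All ranges in parentheses are exact 95% intervals that cover counting error only.

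Hepatocytes divide their work along the line from the portal vein to the central vein. Cells near the portal vein run ureagenesis, gluconeogenesis and amino acid breakdown, and cells near the central vein run drug metabolism, bile acid synthesis and glutamine synthesis under Wnt and beta-catenin signalling. Cyp2c39 belongs to the Cyp2c family of cytochrome P450 enzymes, which oxidize drugs, fatty acids and retinoids. Sult2a8 is a liver sulfotransferase, Slc16a10 a plasma membrane carrier of aromatic amino acids and thyroid hormones, and Adgrv1 a very large adhesion G protein-coupled receptor best known from the inner ear.

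The barcodes had been proposed as Cyp2c39-expressing hepatocytes, and the counts went against that name. Sult2a8 gave 63.7% of their 3172 rule UMIs, Slc16a10 17.3%, Cyp2c39 9.99% and Adgrv1 8.95%. A Cyp2c39 UMI was present in 221 of the 588 barcodes (37.6%, 33.7 to 41.6%), whereas 572 held Sult2a8. No rule gene other than Sult2a8 was held by 128 of them. They are therefore called Sult2a8-led barcodes below. These values chose the barcodes and are descriptions only. The same rule found 856 barcodes in the GFP control library, 53.1% (50.6 to 55.6%) of the 1612 within its limits. There Cyp2c39 stood at 862 CPM (counts per 1000000 UMIs of the set; 809 to 917) against 384 CPM (343 to 429) in the Sult2a8-led barcodes. Sult2a8 stood at 1389 CPM (1321 to 1459) in the control set against 2451 CPM (2346 to 2561), Slc16a10 at 1157 against 666 CPM, and Adgrv1 at 195 against 344 CPM. Cyp2c39 and Slc16a10 were thus lower, and Sult2a8 and Adgrv1 higher, in the knockout library's set than in that of the control.

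RNA free in the droplets may have contributed to these counts, and its part was not tested. Barcodes of 200 to under 400 UMIs, read here as free RNA, held Sult2a8 at 616 CPM and Cyp2c39 at 163 CPM in the GS-KO library, and at 1118 and 771 CPM in the control library. Slc16a10 stood at 47.1 and 118 CPM there and Adgrv1 at 10.6 and 6.67 CPM. The free RNA load of a barcode was assumed, not measured. It was set to the median total of all deposited barcodes, 304 UMIs in the GS-KO library and 352 in the control library. At that load 0.254 rule UMIs per barcode would be expected from this source in the GS-KO library and 0.709 in the control library. Of the 224 GS-KO barcodes over the limit for Kupffer and stellate markers, 31.2% (25.2 to 37.8%) also held at least 3 rule UMIs, at a median of 1270 UMIs against 1197 within the limits. A Cyp2c39 UMI was found in 14.3% (9.98 to 19.6%) of these and in 263 of the 1317 barcodes within the limits (17.8 to 22.2%).

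**Figure D1:**
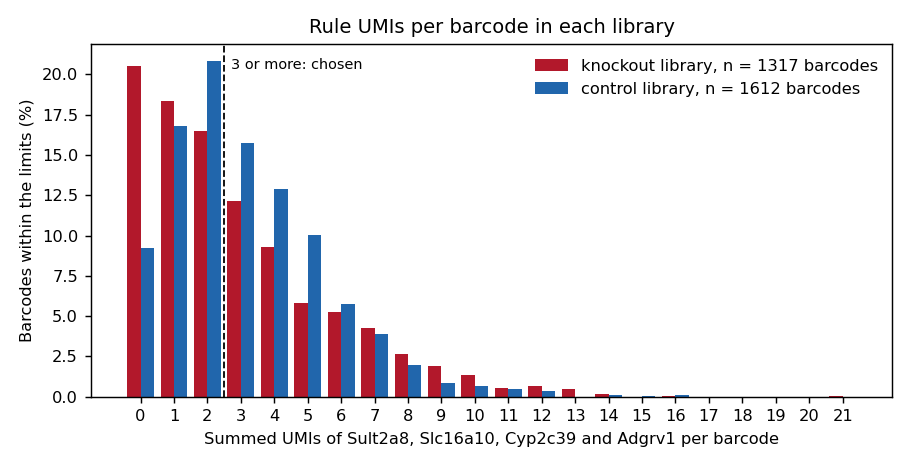
Share of barcodes within the limits (vertical axis, %) by their summed UMIs of the 4 rule genes (horizontal axis), for the GS-KO library in red (1317 barcodes) and the GFP control library in blue (1612 barcodes). Neither library has a gap at the threshold of 3 UMIs, and 270 GS-KO against 149 control barcodes hold 0. GS-KO counts decline from 0 rule UMIs on, whereas control counts rise to 336 barcodes at 2 and fall to 254 at 3.

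The rule sum had no gap at its threshold, as the plot of rule UMIs per barcode shows. In the GS-KO library 217 barcodes held 2 rule UMIs and lay just outside, and 160 held 3 and lay just inside. Cyp2c39 stood at 101 CPM in the former and 199 CPM in the latter, and Sult2a8 at 1147 and 1662 CPM. The median Sult2a8-led barcode held 5 rule UMIs and the highest 21. All 4 genes were seen together in 56 of them, 3 genes in 144, 2 genes in 258 and a single gene in 130.

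The joint occurrence of the 4 genes is described by leaving each out in turn: barcodes were chosen on the other 3 genes (at least 2 UMIs against 0) and the left-out gene was counted. The 4 genes were picked on the GS-KO library with earlier results known, so the values there are a description and no independent support, and a joint pattern in that library was favoured by the choice. In the GS-KO library Adgrv1 stood 7.24-fold higher (4.15 to 15.3) in barcodes chosen on the other 3, at 252 against 33.3 CPM. Slc16a10 stood 4.62-fold higher (3.37 to 6.66), at 512 against 110 CPM. Cyp2c39 stood 4.06-fold higher (2.71 to 6.63), at 280 against 67.7 CPM, and Sult2a8 1.94-fold higher (1.77 to 2.13), at 2112 against 1087 CPM. In the control library the same ratios were 2.56 (1.43 to 5.67) for Adgrv1, 1.39 (1.19 to 1.63) for Slc16a10, 1.31 (1.10 to 1.57) for Cyp2c39 and 1.31 (1.16 to 1.49) for Sult2a8. Each library is 1 mouse, and the difference between them was not tested. Free RNA holds more Cyp2c39, Slc16a10 and Sult2a8 in the control library, as given above, and its part in this was not tested.

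**Figure D2:**
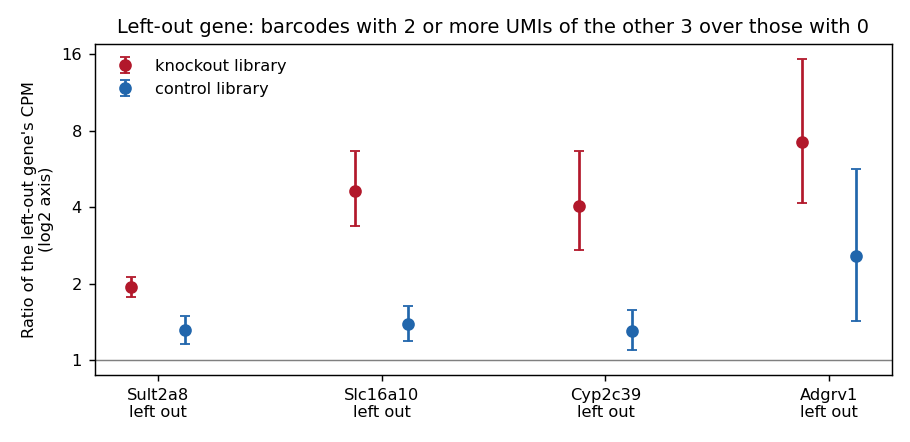
Ratio of the CPM of the gene left out (log2 axis) between barcodes with at least 2 UMIs of the other 3 rule genes and barcodes with 0, for the GS-KO library (red) and the GFP control library (blue). Bars are exact 95% intervals for counting error, and in the GS-KO library the ratios run from 1.94 for Sult2a8 to 7.24 for Adgrv1.

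Pairs of rule genes were also counted after every barcode was thinned to 1000 UMIs. In the GS-KO library Slc16a10 was seen in 43.1% (36.4 to 49.9%) of the 216 barcodes with Cyp2c39 and in 21.7% (19.3 to 24.3%) of the 1101 without it. Adgrv1 was seen in 25.9% of the former and 11.1% of the latter. In the control library Slc16a10 was seen in 47.5% (43.8 to 51.2%) of 722 barcodes with Cyp2c39 and in 47.6% (44.3 to 51.0%) of 890 without it, so no joint occurrence of this pair was detectable there. Slc16a10 and Adgrv1 did occur together in the control library: Slc16a10 was seen in 60.8% (52.3 to 68.9%) of the 143 barcodes with Adgrv1 and in 46.3% (43.7 to 48.9%) of the 1469 without it.

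Depth and RNA composition moved with the rule. The Sult2a8-led barcodes had a median of 1264 UMIs and 831 genes, those with 1 or 2 rule UMIs 1170 and 768, and those with 0 rule UMIs 1123 and 734. The share of barcodes chosen ran from 30.3% at 1000 to under 1100 UMIs to 66.7% at 1500 or more, and was 36.0% (33.4 to 38.6%) after thinning to 1000 UMIs. Their median mitochondrial share was 1.96% against 2.55% with 0 rule UMIs. The nuclear transcript Malat1 stood at 42163 CPM (41721 to 42609) against 34060 CPM (33421 to 34709). Hepatocyte markers were present in both sets: all 12 fixed ones passed the count filter, and their sum stood at 51241 CPM in the Sult2a8-led barcodes, 67073 CPM in the 0 set and 138944 CPM in free RNA. Alb, among them, stood at 15662 CPM over all GS-KO barcodes within the limits. In those over the limit for Kupffer and stellate markers it stood at 13781 CPM. The presence of these markers alone therefore does not set hepatocytes apart. Of the 588 barcodes, 1 shared its barcode sequence with a control barcode of at least 1000 UMIs, and that control barcode did not meet the rule.

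Kupffer, lymphocyte, plasma cell, neutrophil and monocyte markers were lower in the Sult2a8-led barcodes than in the 0 set. More than 1 UMI of 10 Kupffer markers outside the rule was held by 43 of 588 (7.31%) and by 40 of the 270 with 0 rule UMIs (14.8%), and their sum stood at 298 against 555 CPM, and at 1143 CPM in free RNA. For 10 endothelial markers these counts were 9 and 8 barcodes, for 9 stellate markers 3 and 1, and for 7 cholangiocyte markers 14 and 4. Of 13 lymphocyte and plasma cell markers, 8 were at 0 in the Sult2a8-led barcodes, and 1 barcode held more than 1 UMI of them. In the 0 set 9 barcodes did, with 342 UMIs between all 270, up to 94 in 1 barcode. The sum of 7 neutrophil and monocyte markers stood at 42.4 against 120 CPM, and 25 of the 38 UMIs in the 0 set came from 1 barcode. The 2 genes with the lowest ratios rest on such barcodes, as given below.

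Outside the rule genes, 3894 genes had at least 50 UMIs over the 588 and 270 barcodes together, which is the filter used for every count below. Ratios are log2 of CPM in the Sult2a8-led barcodes over CPM in the 0 set, with 0.5 counts added to each sum. Among these genes 475 (12.2%) stood at least 1.5-fold higher and 316 (8.12%) at least 1.5-fold lower. These shares are the background for each list count below, and a list count near them is no result about its genes. The counting interval was clear of no difference for 335 of the 475 and 226 of the 316. The median ratio over all genes was 0.09 and 58.3% lay above 0. The Sult2a8-led barcodes held 824868 UMIs and the 0 set 317115. A gene high in the former therefore passes the filter more easily than one high in the latter. This bears on these shares and on every list count and median below.

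Highest of the genes named by rule was Lgr5, a receptor for R-spondins that strengthens Wnt signalling and marks hepatocytes next to the central vein. It gave 103 UMIs in the Sult2a8-led barcodes, 125 CPM (102 to 151), and none among the 317115 UMIs of the 0 set. Its 125 CPM stood 13.2-fold above a floor of 3 counts over that set. With the counting error of both sets, the interval of its log2 ratio begins at 3.40, a smaller fold than this. Free RNA held it at 3.44 CPM. Tox, a nuclear protein of the HMG-box family, stood at 120 against 6.31 CPM and Tenm3, an adhesion protein of the teneurin family, at 531 (482 to 583) against 148 (109 to 197). In the control barcodes chosen by the same rule Tox stood at 852 CPM and Tenm3 at 453 CPM. In control barcodes with 0 rule UMIs they stood at 359 and 245 CPM. Tox was thus higher in both control sets than in the matching GS-KO sets. Tenm3 was lower in the chosen control barcodes and higher in those with 0 rule UMIs. Over all control barcodes within the limits, whatever their rule UMIs, Tox stood at 696 CPM and Tenm3 at 374 CPM. Slc1a2, a glutamate importer of pericentral cells, stood at 112 against 22.1 CPM in the GS-KO library.

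Among the other genes named as highest were 3 P450 enzymes. Cyp2b9 stood at 105 against 9.46 CPM. It belongs to the fixed list of the system of the receptors CAR and PXR. It was also the only 1 of 15 female-biased genes to pass the filter. Cyp2d12, another P450 enzyme, stood at 101 against 18.9 CPM and Cyp2c38 at 128 against 15.8 CPM. Pdk4, the kinase that switches off pyruvate dehydrogenase, stood at 72.7 against 9.46 CPM, and Aldh3a2, a fatty aldehyde dehydrogenase, at 103 against 22.1 CPM. Mup11, a major urinary protein whose UMIs may be divided among near-identical relatives, stood at 99.4 against 6.31 CPM. Adgrb3 and Nrp2, surface receptors, Nuak2, a kinase related to AMPK, and Zfp992, a zinc finger gene, had ratios from 2.44 to 2.66. Airn, a noncoding transcript that overlaps Igf2r on the other strand, had a ratio of 1.98, and no source used here says whether the counting used strand. Among barcodes of at least 1500 UMIs, where the 0 set had 14, the ratio of Pdk4 was -0.83 and that of Nrp2 0.13.

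Lowest were 2 genes carried by a few barcodes. Jchain, the joining chain of secreted antibodies, gave 273 UMIs in 9 barcodes of the 0 set, 71 of them in 1, and 3 UMIs in the Sult2a8-led barcodes. Slpi, a secreted protease inhibitor, gave 276 UMIs in 8 barcodes of the 0 set and 3 UMIs in the Sult2a8-led ones. An alternative chosen after seeing the data left out barcodes holding more than 1 lymphocyte or plasma cell UMI. There Slpi had a ratio of -0.20 from 3 UMIs against 1, so its difference is that of the few barcodes left out. Jchain had a ratio of 1.38 from 3 UMIs against 0. It is itself among the markers of that limit and all 9 of its barcodes in the 0 set held more than 1 UMI, so this was fixed beforehand. Tmsb4x, an actin-binding peptide abundant in immune cells, stood at 59.4 against 148 CPM, and at 345 CPM in free RNA.

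The remaining low genes were spread over many barcodes. Chrm3, a muscarinic acetylcholine receptor, stood at 308 CPM (271 to 348) in the Sult2a8-led barcodes and 1157 CPM (1042 to 1282) in the 0 set, with 22.9 CPM in free RNA. It was seen in 118 of 588 barcodes (20.1%) and in 169 of 270 (62.6%), and after thinning in 16.3% and 59.6%. Over all control barcodes within the limits it stood at 22.4 CPM. Hal, histidine ammonia-lyase of histidine breakdown, stood at 239 CPM (207 to 275) against 754 CPM (661 to 856), with 221 CPM in free RNA. Hsd17b13, an enzyme on lipid droplets, stood at 232 against 621 CPM and Hsd17b6, a steroid and retinol dehydrogenase, at 78.8 against 281 CPM. Sds, serine dehydratase, stood at 63.0 against 205 CPM, Gls2, the liver glutaminase, at 47.3 against 142 CPM and Sfxn1, a mitochondrial serine carrier, at 63.0 against 164 CPM. Esr1, estrogen receptor alpha, Plxna2, a semaphorin receptor, Pdzrn3, a ubiquitin ligase, Ctsc, a lysosomal protease, and Sult5a1, another sulfotransferase, had ratios of -1.61, -1.57, -1.92, -1.95 and -2.36.

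Genes of the central vein side were higher as a list. Of 27 fixed genes 15 passed the filter, of which 10 stood higher and 1 lower, with a median ratio of 0.99 against 0.09 over all genes. The median is the same with Lgr5 at its bound, since Lgr5 stays the highest. Lgr5 passed the filter on the Sult2a8-led barcodes alone. With a filter of 20 UMIs per gene 21 passed, 14 higher and 2 lower, with a median of 0.99. Cyp2e1, the ethanol-oxidizing P450, stood at 3268 CPM against 1649 CPM, with a ratio of 0.99 (0.85 to 1.12). Cyp1a2, a P450 of caffeine and arylamine metabolism, stood at 381 against 177 CPM and Prodh, proline dehydrogenase, at 172 against 82.0 CPM. Rnf43 and Znrf3, ubiquitin ligases that remove Wnt receptors and are themselves Wnt targets, stood at 221 against 69.4 CPM and 158 against 94.6 CPM. Ahr, the dioxin receptor, stood at 209 against 66.2 CPM. Under the main filter the gene on the low side was Gstm2, a glutathione transferase, at 37.6 against 63.1 CPM. The interval of its ratio was -1.60 to 0.14.

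Glul, the deleted gene and itself a classical pericentral gene, gave 32 UMIs in the Sult2a8-led barcodes, 38.8 CPM (26.5 to 54.8), and 2 UMIs in the 0 set, too few for the filter. Over the control barcodes within the limits it stood at 126 CPM (111 to 143), and at 9.78 CPM in free RNA of the GS-KO library. No source used here says which bases of Glul the floxed allele removes, so these counts do not check the deletion itself. Oat, ornithine aminotransferase, commonly listed beside Glul, stood at 32.7 against 53.6 CPM from 27 and 17 UMIs, and at 262 CPM in the control barcodes.

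**Figure D3:**
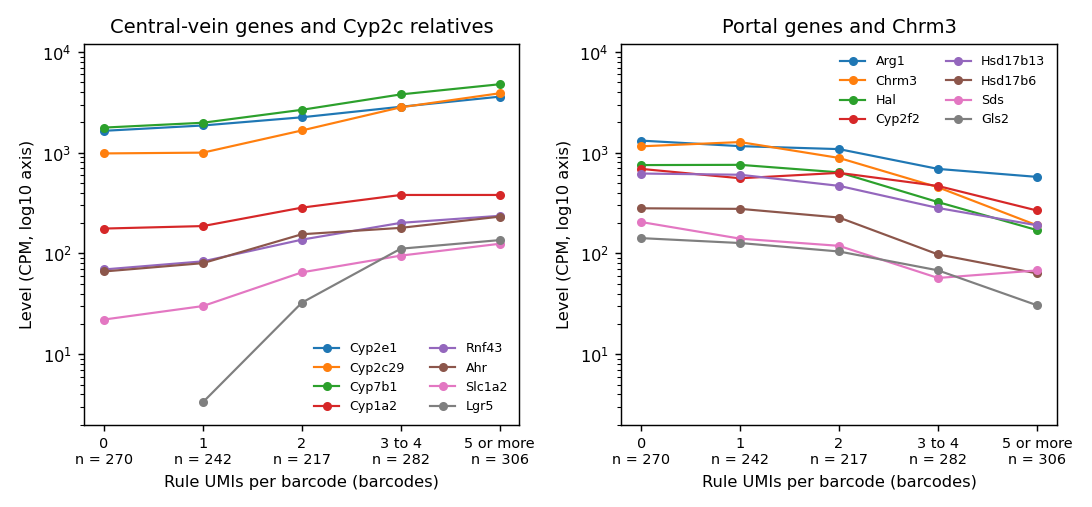
Level of single genes (CPM, log10 axis) in GS-KO barcodes grouped by their rule UMIs (0, 1, 2, 3 to 4, 5 or more; the number of barcodes is under each), for genes of the central vein side with Cyp2c29 and Cyp7b1 (left) and genes of the portal side with Chrm3 (right). Lgr5 at 0 rule UMIs is 0 CPM and is not drawn. Cyp2c29 runs from 984 to 3890 CPM and Hal from 754 to 171 CPM across the groups.

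These levels were graded over the rule sum, as the plot of levels by rule UMIs shows. Lgr5 stood at 0, 3.34, 32.5, 111 and 136 CPM in barcodes with 0, 1, 2, 3 to 4, and 5 or more rule UMIs. Cyp2e1 stood at 1649, 1863, 2247, 2857 and 3599 CPM in the same order. Hal stood at 754, 758, 638, 324 and 171 CPM and Chrm3 at 1157, 1275, 887, 454 and 190 CPM. Barcodes with 1 rule UMI were near those with 0 for Hal, Chrm3, Cyp2e1 and Cyp2c29, and those with 2 lay between these and the chosen ones. The median depth of these groups ran from 1123 to 1360 UMIs.

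Relatives of Cyp2c39 were higher too. Of 15 other Cyp2c genes 9 passed the filter, 5 stood higher and none lower, with a median ratio of 0.82. Over all genes 12.2% stood higher. Cyp2c29, an abundant P450 of the central vein side, stood at 3414 CPM (3289 to 3542) against 984 CPM (878 to 1099), with 1847 CPM in free RNA. Its ratio was 1.79 (1.63 to 1.97). Cyp2c50 stood at 361 against 120 CPM, Cyp2c54 at 192 against 69.4 CPM, Cyp2c38 as given above and Cyp2c37 at 52.1 against 28.4 CPM. Cyp2c23, Cyp2c67, Cyp2c68 and Cyp2c70 lay within 1.5-fold, at ratios from -0.22 to 0.38.

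Similar sequence is a limit on the values of Cyp2c39, Cyp2c38 and Cyp2c29, and the other Cyp2c genes were not compared in sequence. Cyp2c39, Cyp2c38 and Cyp2c29 lie in a cluster on chromosome 19 of GRCm38: Cyp2c29 at 39269405 to 39330713 on the plus strand, Cyp2c38 at 39389556 to 39463075 on the minus strand and Cyp2c39 at 39510862 to 39568529 on the plus strand. The coding sequence of Cyp2c39 (1473 bases in GENCODE vM21) is identical to that of Cyp2c38 at 94.2% of positions and to that of Cyp2c29 at 89.5%. The first 90 coding bases are shown because a 5-prime library captures this end of the transcript. Capitals mark, in Cyp2c39, positions where either relative differs from it, and in the relatives, positions that differ from Cyp2c39.
Cyp2c39, chr19:39510871-39510960, plus strand: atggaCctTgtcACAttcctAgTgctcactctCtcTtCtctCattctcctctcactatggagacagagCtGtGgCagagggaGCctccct
Cyp2c38, chr19:39462965-39463054, minus strand: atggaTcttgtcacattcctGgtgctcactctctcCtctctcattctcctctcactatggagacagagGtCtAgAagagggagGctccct
Cyp2c29, chr19:39287118-39287207, plus strand: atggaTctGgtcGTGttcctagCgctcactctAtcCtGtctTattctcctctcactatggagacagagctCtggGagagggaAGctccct
All 3 stretches lie in the first coding exon. Cyp2c38 differs from Cyp2c39 at 8 of the 90 positions and Cyp2c29 at 14, so a read of this end can be told apart only where it covers such a position. The counts are per gene, and the UMIs of Cyp2c39, Cyp2c38 and Cyp2c29 are uncertain to that extent.

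The 250 bases before the RefSeq starts of the 3 genes are shown because Cyp2c38 and Cyp2c29 were both higher in barcodes selected in part on Cyp2c39. The selection fixed the difference of Cyp2c39 itself. The bases are taken from RefSeq on GRCm38.p6 and written in the direction of transcription. RefSeq starts differ from the GENCODE spans given above: the Cyp2c29 window lies inside the span of 39269405 to 39330713. The Cyp2c39 window ends short of the GENCODE start at 39510862. Capitals mark the longest run that all 3 share, found by comparing them.
Cyp2c39, chr19:39510572-39510821, plus strand: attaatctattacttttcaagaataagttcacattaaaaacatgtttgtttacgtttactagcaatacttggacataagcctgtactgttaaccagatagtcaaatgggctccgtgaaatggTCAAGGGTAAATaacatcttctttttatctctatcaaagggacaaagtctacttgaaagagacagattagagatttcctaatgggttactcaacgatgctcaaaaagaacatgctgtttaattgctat
Cyp2c38, chr19:39463076-39463325, minus strand: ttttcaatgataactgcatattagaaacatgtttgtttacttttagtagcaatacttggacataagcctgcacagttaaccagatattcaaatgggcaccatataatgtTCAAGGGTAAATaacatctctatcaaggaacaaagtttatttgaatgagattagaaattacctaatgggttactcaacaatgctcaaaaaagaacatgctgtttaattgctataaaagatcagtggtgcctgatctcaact
Cyp2c29, chr19:39286835-39287084, plus strand: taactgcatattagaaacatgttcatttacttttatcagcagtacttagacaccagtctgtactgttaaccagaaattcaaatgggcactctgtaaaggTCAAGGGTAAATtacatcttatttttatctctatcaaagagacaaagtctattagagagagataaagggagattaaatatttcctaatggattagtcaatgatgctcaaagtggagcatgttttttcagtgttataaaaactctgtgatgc
The shared run is TCAAGGGTAAAT, of 12 bases, and ends 117, 130 and 140 bases before the RefSeq start in the order shown. On either strand it was found in 5 of 32851 windows of this length in the RefSeq table (0.0152%), which belong to these 3 genes and Hoxd8. Its presence in these 3 genes was fixed by the way it was chosen, so the share says nothing about them. Cyp2c50, Cyp2c54 and Cyp2c37, which also stood higher, were not among the genes found with it. The run is a description of the sequences, and no factor was searched for.

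Genes of the portal side were lower as a list. Of 25 fixed genes 21 passed the filter, of which 11 stood lower and none higher, with a median ratio of -0.61. Besides Hal, Sds, Gls2, Hsd17b6, Hsd17b13 and Ctsc, they were Arg1, arginase of the urea cycle, at 627 CPM (574 to 683) against 1318 CPM, and Cyp2f2, the standard portal P450, at 356 against 691 CPM. Gldc of glycine cleavage stood at 183 against 325 CPM, Uroc1 of histidine breakdown at 202 against 353 CPM, and Serpina1b, a secreted protease inhibitor, at 2602 against 3961 CPM. The abundant portal genes differed less: Cps1, the entry enzyme of the urea cycle, had a ratio of -0.45, Pck1 of gluconeogenesis -0.24 and G6pc 0.10. The sum of the list stood at 37793 CPM, 53536 CPM and, in free RNA, 94951 CPM. Of 8 urea cycle genes that passed, Arg1 alone stood lower, where 8.12% of all genes did, and the median ratio was -0.38.

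Several bile acid genes were higher. Of 23 fixed genes 22 passed, 6 stood higher and none lower, with a median ratio of 0.27, where 12.2% of all genes stood higher. In the control library 6 of 22 stood higher and 1 lower, with a median of 0.32. Cyp7b1, the oxysterol hydroxylase of the acidic pathway, stood at 4339 CPM (4198 to 4483) against 1775 CPM (1632 to 1928), with 850 CPM in free RNA. Cyp7a1, the rate-limiting enzyme of the classical pathway, stood at 200 against 82.0 CPM, and Cyp27a1, the sterol 27-hydroxylase, at 523 against 237 CPM. Klb, the co-receptor through which FGF15 restrains Cyp7a1, stood at 81.2 against 22.1 CPM. Slco1b2, a bile acid and thyroid hormone importer, stood at 4049 against 2188 CPM and Abcb4, the phospholipid exporter, at 679 against 451 CPM. Cyp8b1, the 12-alpha-hydroxylase that sets the type of bile acid, stood at 75.2 against 110 CPM, within 1.5-fold.

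Of 18 genes of the CAR and PXR system that passed, 5 stood higher and 1 lower, with a median ratio of 0.27. Over all genes 12.2% stood higher and 8.12% lower. Nr1i3, which encodes CAR, stood at 296 against 120 CPM, and Por, the reductase that feeds electrons to P450 enzymes, at 192 against 88.3 CPM. Of 11 major urinary protein genes that passed, Mup11, Mup17, Mup9 and Mup10 stood higher and Mup20 and Mup21 lower, and the median ratio was -0.30. Of 10 immediate early genes, which respond within minutes to stress such as tissue digestion, Btg2, Fos and Atf3 stood higher, with Fos at 387 against 214 CPM, and the median ratio was 0.42. Among barcodes of at least 1500 UMIs that median was -0.24.

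Several lists of short or cytoplasmic transcripts were lower. Over all genes 8.12% stood lower. Of 65 ribosomal protein genes that passed, 32 stood lower and none higher, with a median ratio of -0.58, and their sum stood at 7378 against 11109 CPM and 26091 CPM in free RNA. Of 55 nuclear genes of the respiratory chain 20 stood lower, with a median of -0.37, and the 12 genes of the mitochondrial genome had a median of -0.47. Of 27 acute phase genes 6 stood lower, among them Hpx, the heme carrier hemopexin, at 3814 against 5749 CPM and Lcn2, an iron-siderophore binder, at 765 against 1154 CPM. The acute phase sum was 86739 CPM in free RNA against 35916 and 47219 CPM in the 2 sets. Of 7 MHC class I genes B2m, H2-D1 and H2-T23 stood lower, with B2m at 895 against 1526 CPM. All 12 hepatocyte markers had ratios below 0. The higher free RNA level of these lists and the higher Malat1 of the Sult2a8-led barcodes moved with them, and their part in these differences was not tested. The free RNA profile was also taken off both sets at the load assumed above. Negative results were set to 0 and the filter was applied again to the counts left. The medians were then -1.21 over the 22 ribosomal protein genes that still passed and -1.64 over 11 of the mitochondrial genome. They were -0.96 over 25 acute phase genes and -1.12 over 20 of the portal list. These medians depend on the assumed load and rest on the counts left, so they do not measure these lists without free RNA.

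Cholesterol synthesis genes were lower as a list as well. Of 16 genes that passed, 6 stood lower and none higher, with a median of -0.52, where 8.12% of all genes stood lower. Sqle, squalene epoxidase, stood at 44.9 against 94.6 CPM and Hmgcs1, which makes a precursor of mevalonate, at 204 against 306 CPM. The sum of the list in free RNA was 2852 CPM, between the 2420 CPM of the Sult2a8-led barcodes and the 3097 CPM of the 0 set. In the control library the median over 15 of these genes was 0.02.

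**Figure D4:**
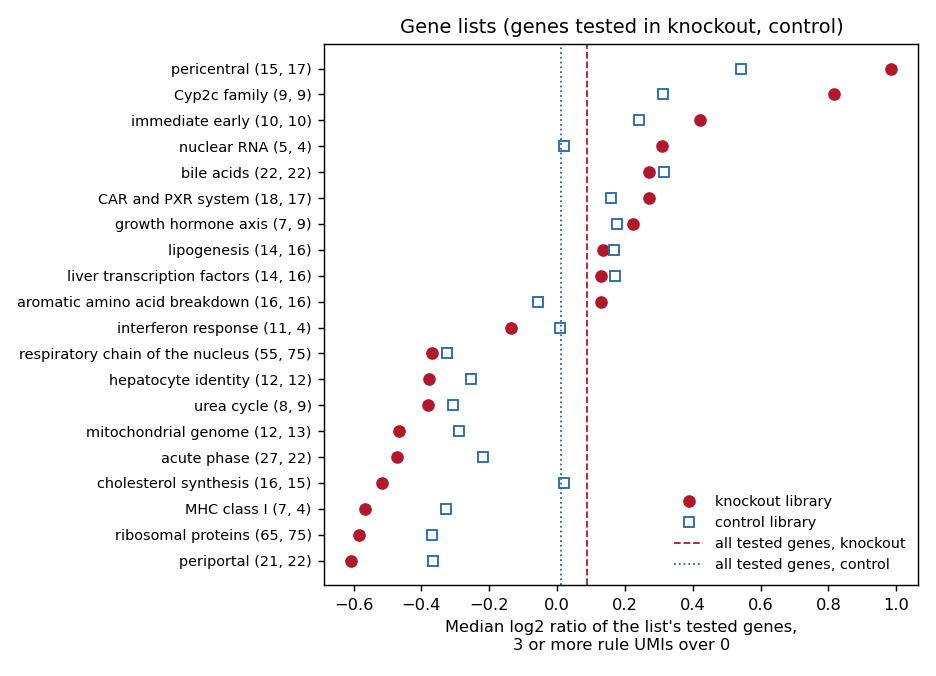
Median log2 ratio (horizontal axis) of the genes of each list that passed the filter, barcodes with 3 or more rule UMIs over those with 0, in the GS-KO library (red) and the GFP control library (blue squares). Numbers in parentheses are the genes that passed in each library and lines mark the median of all genes. In the GS-KO library the medians run from -0.61 for the portal list to 0.99 for the central vein list.

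Some lists lay near the median of all genes, 0.09. Medians were 0.10 for retinoid handling, 0.13 for aromatic amino acid breakdown, 0.03 for glutamine and glutamate, 0.10 for PPAR-alpha targets, 0.13 for lipogenesis, 0.22 for the growth hormone axis and -0.14 for the interferon response. Lists tied to what the rule genes do are given beside the 12.2% of all genes that stood higher and the 8.12% that stood lower. Of 16 genes of aromatic amino acid breakdown, the pathway of cargo carried by Slc16a10, Kmo and Gch1 stood higher, near the share of all genes. Of 18 sulfate conjugation genes 4 passed and Sult5a1 alone stood lower, while Sult2a1 to Sult2a6, close relatives of Sult2a8, gave no UMI in either set. Of 8 amino acid transporters that passed, Slc1a2 stood higher and 3 lower, with a median of -0.23, and Slc7a2, a carrier of cationic amino acids, stood at 664 against 1012 CPM. Of 9 genes of thyroid hormone handling, Slco1b2 stood higher and Dio1, the deiodinase of liver, lower, at 70.3 against 120 CPM. Their median was 0.22.

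Further lists lay away from the median of all genes on few genes each. Over all genes 12.2% stood higher and 8.12% lower. Of 8 male-biased genes 3 stood higher, Cyp7b1 among them, and 1 lower, with a median of 0.49. Medians were 0.54 and 0.52 for the 2 clock lists of 5 genes each that passed, with 2 and 1 higher, and 0.66 for the 3 p53 targets that passed of 9, with 2 higher. On the low side were 4 midlobular genes with a median of -0.47, 1 of them lower, and 8 genes of the integrated stress and unfolded protein response with a median of -0.32, 1 higher and 2 lower.

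Gene length moved with the ratio. Of the 3894 genes 3892 had a length in the annotation. Among the 779 shortest, up to 14.8 kb, the median ratio was -0.24, with 7.06% of genes higher and 19.6% lower. Among the 779 longest, from 117 kb, it was 0.22, with 16.6% higher and 3.72% lower. Malat1 and the mitochondrial and ribosomal lists moved with the same contrast, as given above, and their part in this was not tested. Where both sets were restricted to barcodes with 3 to 5% Malat1, an alternative chosen after seeing the data, 332 and 130 barcodes were left. There the median was 1.02 for the central vein list, -0.55 for the portal list, 1.17 for the Cyp2c genes and -0.29 for ribosomal proteins.

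In the control library the same contrast set 856 barcodes against 149. Of 4207 genes that passed the filter there, 494 (11.7%) stood higher and 360 (8.56%) lower. Over 3508 genes that passed in both libraries, 100 stood higher in both, which is 24.4% of the 409 higher in the GS-KO library and 25.4% of the 393 higher in the control. Of all 3508 genes 11.2% stood higher in the control. Another 51 stood lower in both, 20.3% of 251 and 21.5% of 237, where 6.76% of all 3508 stood lower in the control. On opposite sides lay 13 of the 409 (3.18%, beside 6.76% of all) and 12 of the 251 (4.78%, beside 11.2% of all). The central vein list had a median of 0.54 in the control library, the portal list -0.36 and the Cyp2c genes 0.31, each nearer 0 than in the GS-KO library, whereas the bile acid list, at 0.32 against 0.27, and the male-biased list, at 0.62 against 0.49, were not. The difference between the libraries was not tested, and free RNA of Cyp2c39, Slc16a10 and Sult2a8 was higher in the control library.

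The plot of named genes sets the 2 libraries side by side. Slc1a2 stood at 528 against 120 CPM in the control library, a ratio of 2.11 (1.52 to 2.84), close to the 2.25 of the GS-KO library. Lgr5 had a ratio of 1.24 (0.24 to 2.68) and Cyp2c29 of 0.55 (0.40 to 0.71) there. Chrm3, far less abundant in the control, had a ratio of -2.71 and Hsd17b13 of -1.94. Esr1 stood at 615 and 558 CPM in the 2 control sets, a ratio of 0.13 (-0.17 to 0.46), against -1.61 (-2.10 to -1.13) in the GS-KO library. Mup11 and Aldh3a2 had ratios of 0.02 and -0.00 in the control. Cyp2b9 lay on the other side, at 110 against 194 CPM.

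**Figure D5:**
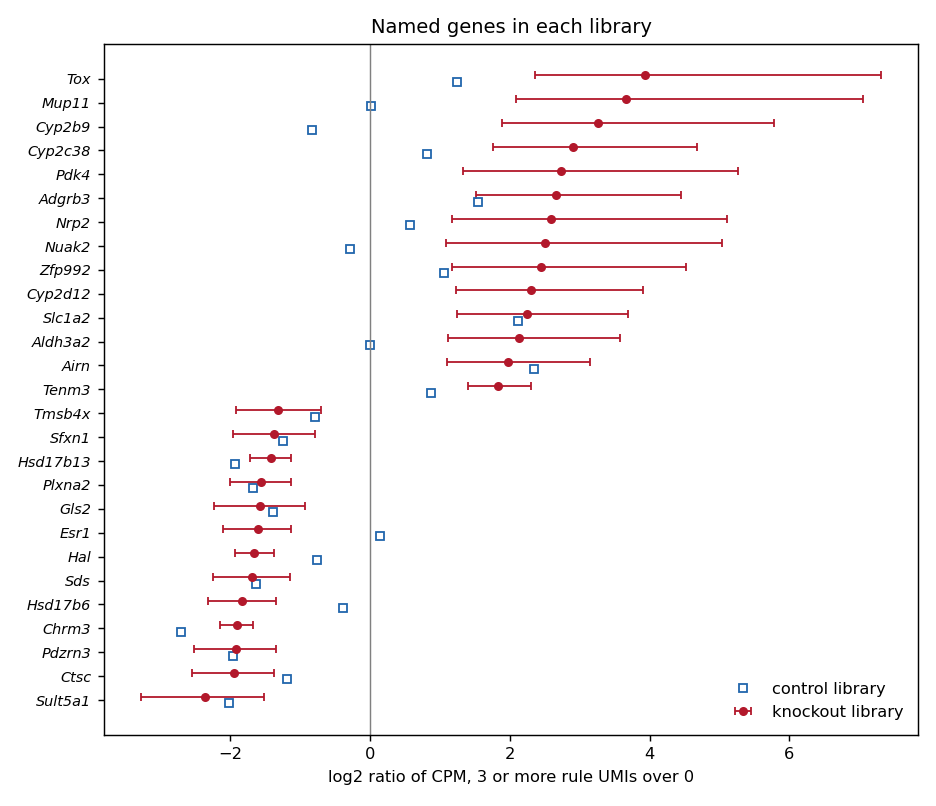
Log2 ratio of CPM, barcodes with 3 or more rule UMIs over those with 0, of the named genes in the GS-KO library (red, with exact 95% counting intervals) and the GFP control library (blue squares). Lgr5, Jchain and Slpi are left out for scale, and Pdk4 and Cyp2d12 have no control point because they gave few UMIs there. Esr1 has a ratio of -1.61 in the GS-KO library and 0.13 in the control.

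The NF-kB limit set aside 331 GS-KO barcodes and 15 control barcodes. Of the 331 over that limit 33.2% had at least 3 rule UMIs, against 43.0% of the 1503 within it, and 110 barcodes met the rule but for this limit. In the control library the order was the other way, 73.3% of the 15 against 52.96% of 1688. Neither difference was tested.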

How the data were processed

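Each of the 2 libraries was deposited as 1 matrix of UMI counts per gene and barcode, whole numbers that are not normalized. Per the file headers the authors counted with Cell Ranger 8.0.0, and the submitters' processing notes name the mm10 build. No source used here says how barcodes were selected for deposit or how doublets were treated, and no doublet caller was run. The matrices held 175937 GS-KO and 166037 control barcodes, with medians of 304 and 352 UMIs. Counts were summed over the barcodes of a set and scaled to CPM. Ratios used 0.5 added counts, genes with at least 50 UMIs over both sets, and a 1.5-fold limit. The rule genes and the genes of its limits were left out of all other comparisons. Named genes had at least 50 CPM in either set. Mitochondrial, ribosomal protein, immunoglobulin and clone-named genes were left out, and the 15 highest and 15 lowest ratios with 5 CPM added were taken. Others are named as members of 46 gene lists. Intervals are exact Poisson, conditional binomial for ratios and Clopper-Pearson for shares. Thinning used seed 1. Gene positions and coding bases came from GENCODE vM21 and promoters from RefSeq. The members, lists and rules were chosen with earlier results of these data known. Scripts were tested on simulated counts (Python 3.11.15, numpy 2.4.6, scipy 1.17.1).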

Additional observations from a re-analysis of the deposited data

Results flagged for a closer look

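Cyp2b9 lay on opposite sides in the 2 libraries. Its log2 ratio between barcodes with at least 3 and with 0 rule UMIs was 3.26 (1.88 to 5.78) in the GS-KO library and -0.83 (-1.37 to -0.23) in the GFP control library. The counts were 87 and 3 UMIs in the GS-KO library, where 68 of 588 and 3 of 270 barcodes held the gene. Each library is 1 mouse, and the difference was not tested. Across the alternatives the GS-KO ratio ran from 1.89 to 3.91.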

How the results depend on the processing

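The number of barcodes chosen was 160 at a minimum of 1500 UMIs and 313 on the rule without Sult2a8. Among alternatives chosen after seeing the data it was 332 at a Malat1 share of 3 to 5% and 263 on Cyp2c39 alone (at least 1 UMI against 0). Genes at least 1.5-fold higher, 475 in the main comparison, numbered 269 at a minimum of 1500 UMIs, 273 against barcodes with 1 or 2 rule UMIs, 260 at a Malat1 share of 3 to 5% and 297 on Cyp2c39 alone. Genes at least 1.5-fold lower, 316 in the main comparison, numbered 195 among barcodes under 1500 UMIs, 206 after thinning and 170 at a Malat1 share of 3 to 5%. By construction, filters of 20 and 200 UMIs per gene gave 1020 and 100 higher and 780 and 56 lower, and a 2-fold limit gave 119 and 68.

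Of 30 named genes 26 kept their direction under every alternative run for them. They were chosen for extreme ratios and the alternatives reuse the same barcodes, so a kept direction is no independent support. On Cyp2c39 alone Lgr5 had a ratio of 1.65, from 52 against 61 UMIs. Mup11 had 0.64 there and Tenm3 0.68, against 3.67 and 1.83 in the main comparison. Cyp2b9 had 2.21 and Cyp2c38 2.31, against 3.26 and 2.90. Pdk4 had a ratio of -0.83 and Sult5a1 of 0.19 at a minimum of 1500 UMIs, where the comparison had 14 barcodes. Slpi and Jchain had 0.72 at a Malat1 share of 3 to 5%, and Jchain 1.38 with the lymphocyte and plasma cell limit, each from 3 UMIs or fewer. Cyp2d12 had a ratio of 0.33 against barcodes with 1 or 2 rule UMIs. The medians of the central vein list ran from 0.59 to 1.80, of the portal list from -1.12 to -0.47 and of the Cyp2c genes from 0.38 to 1.28. On Cyp2c39 alone the central vein median was 0.59, the ribosomal one -0.17 and the respiratory one -0.06. No paired analysis was possible because each condition has 1 mouse.

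Depth limits these values: a barcode of 1264 UMIs shows most genes at 0 or 1 UMI. A count of 0 in the 270 comparison barcodes allows up to 9.46 CPM, taken as 3 counts over their 317115 UMIs.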

Other observations

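Barcodes with 1 or 2 rule UMIs differed from gene to gene in where they lay. Hal stood at 700 CPM and Chrm3 at 1089 CPM in those 459 barcodes, against 754 and 1157 CPM with 0 rule UMIs. Ctsc and Sds stood at 111 and 130 CPM there, between the 202 and 205 CPM of the 0 set and the 52.1 and 63.0 CPM of the Sult2a8-led barcodes. Cyp2c29 stood at 1319 CPM, Lgr5 at 17.3 CPM and Tenm3 at 244 CPM in them, also between, whereas Aldh3a2 at 27.7 CPM was near its 22.1 CPM in the 0 set and Cyp2c37 at 12.1 CPM was below its 28.4 CPM. Airn was seen in 79 of 588 Sult2a8-led barcodes with up to 4 UMIs in 1 barcode, and Adgrb3 in 61 with up to 7.

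Of the genes that stood higher, 62 had a counting interval that lay wholly past 1.5-fold, and of those that stood lower 45. Aox3, an aldehyde oxidase, was among the abundant lower genes, at 2186 CPM against 3380 CPM. Trp53inp1, a p53 target, was among the abundant higher ones, at 532 against 271 CPM, and Mlxipl, the glucose-responsive factor ChREBP, stood at 582 against 344 CPM.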
